A study of Homo sapiens with 6 samples.

Results

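The transcripts described here are 10 genes of epidermal growth factor (EGF) receptor signalling: the receptors EGFR, ERBB2 and ERBB3, the ligands AREG, HBEGF and TGFA, and the feedback inhibitors ERRFI1, SPRY2, SPRY4 and SPRED1. They were chosen by symbol from the 60605 gene rows of the deposited table, in which each symbol had 1 row. RNA was sequenced from the human hepatoma line Huh-7 once its cells had been loaded with oleic acid (100 µM, 24 h) and then starved. One group next received the flavone pectolinarigenin (100 µM, 24 h; 3 libraries, numbered 1 to 3), and the control group received the vehicle DMSO alone (3 libraries, numbered 1 to 3). Both groups were loaded with oleic acid, so neither shows the cells without it. Whether each library stands for its own culture is not in the labels, so a p-value here speaks only of the scatter among the 6 libraries, part or all of which may be technical.

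The EGF receptor family consists of tyrosine kinases of the cell surface that pair when a ligand binds and then signal through RAS, RAF, MEK and ERK. ERBB2 has no known soluble ligand and ERBB3 has a weak kinase, so both act mainly as partners of other family members. AREG, HBEGF and TGFA are made as membrane-anchored precursors that proteases release, and in liver they are known from regeneration after injury. ERRFI1, also called MIG6, binds and blocks the kinase of EGFR, while Sprouty (SPRY) and SPRED proteins dampen the step from RAS to ERK. Several of these inhibitors are themselves transcribed when ERK is active.

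Total counts were 16054283 to 20311261 in the pectolinarigenin libraries and 15140022 to 18652800 in the control libraries. Summed FPKM (counts scaled by gene length and by the library's total) of 7 hepatocyte markers was 8678 to 9438 in pectolinarigenin libraries and 11974 to 12163 in control libraries. ALB and AFP made up most of it. Of the 7 markers 6 fell, where 25.3% of all tested genes did. Of these, APOB and TTR were near the threshold (edgeR adjusted p = 0.0432 and 0.0427). They lost their call in 11 and 10 of 16 alternative settings. Summed FPKM of 5 fibroblast markers was at most 0.1 in pectolinarigenin libraries and at most 0.23 in control libraries. The 4 leukocyte markers summed to 1.98 to 2.26 and 2.84 to 3.67 FPKM in pectolinarigenin and control libraries, and the 4 endothelial markers to 1.16 to 1.37 and 2.32 to 2.63 FPKM. Most of the leukocyte sum was CD14 (means of 1.97 FPKM with pectolinarigenin and 2.98 FPKM in control). Most of the endothelial sum was PECAM1 (1.22 and 2.47 FPKM). The other markers of both lists were scarce or absent, with PTPRC at 0.003 FPKM in each group. KDR, DCN and LUM had 0 counts in every library of both groups, and CD3E, CDH5 and COL1A2 had 0 counts in every pectolinarigenin library and 0 to 3 in the control libraries. The part of these shifts in the values below was not tested. In bulk RNA, fewer cells of a kind and less RNA per cell cannot be told apart.

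Of the 10 genes, 8 reached a mean of 1 FPKM over the 6 libraries and were tested. At an adjusted p under 0.05 (edgeR's quasi-likelihood test, Benjamini-Hochberg over 12829 genes), 5 rose (AREG, SPRY4, ERRFI1, EGFR and SPRY2), 2 fell (ERBB2 and ERBB3) and SPRED1 did not pass. Among all tested genes 25.3% rose and 25.3% fell by this rule, 50.6% together, so a change as such was common in these cells. A change of at least 2-fold was less common, at 3.87% of tested genes (1.96% higher, 1.92% lower), and AREG was the one of these genes that reached it. The 2 groups did not overlap for 58.7% of tested genes.

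**Figure D1:**
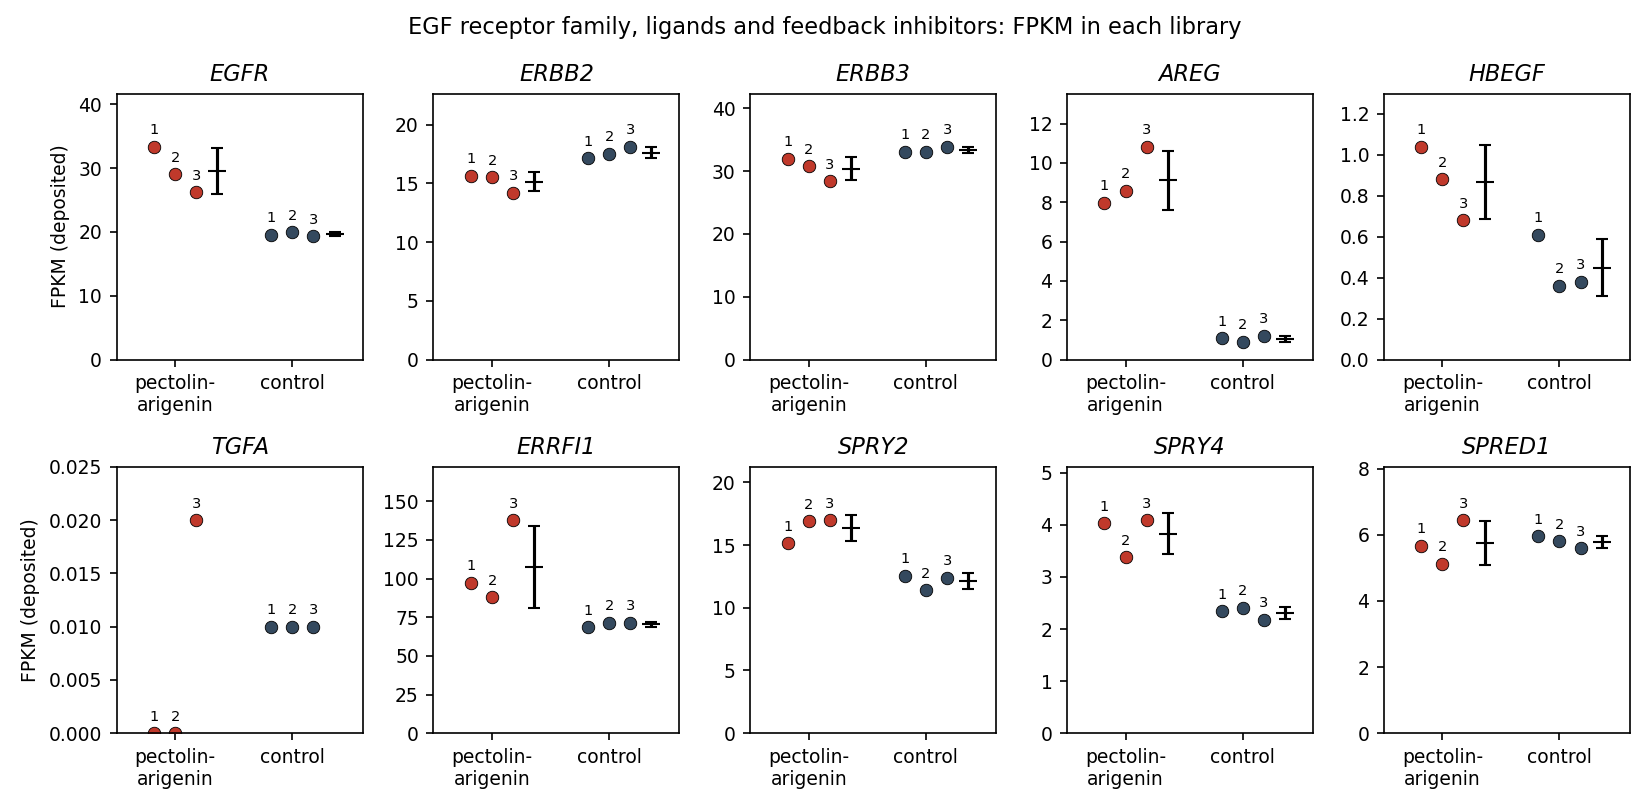
FPKM of the 10 genes in each library (points, numbered by library; pectolinarigenin left, control right), with the mean and SD of each group as a bar, except for TGFA, which rests on 0 to 2 counts per library. The groups do not overlap for AREG, HBEGF, EGFR, ERRFI1, SPRY2 and SPRY4, which are higher with pectolinarigenin, and for ERBB2 and ERBB3, which are lower.

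Among the ligands, AREG, which encodes amphiregulin, had by far the larger change. AREG (ENSG00000109321, chromosome 4, 74445134 to 74455009, GRCh38) had 7.97, 8.59 and 10.82 FPKM in pectolinarigenin libraries 1 to 3, against 1.08, 0.91 and 1.21 FPKM in control libraries 1 to 3. These values rest on 210, 230 and 361 counts with pectolinarigenin and 33, 28 and 30 counts in control. Every pectolinarigenin library stood above every control library. AREG rose 8.42-fold, a log2 fold change of 3.07 (SE 0.17, 95% interval 2.70 to 3.44; edgeR adjusted p = 5.01e-09). It ranked 26th by size of rise among the 12829 tested genes. Its mean was 9.13 ± 1.50 FPKM in pectolinarigenin libraries and 1.07 ± 0.15 FPKM in control libraries (SD, n = 3 each).

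The promoter of AREG is shown because AREG carries the largest change, and it holds the single match to a cyclic AMP response element, the letters TGACGTCA, among the promoters of these genes. RefSeq promoters on GRCh38.p14 were found for 9 of the 10 genes, and the 250 bases before each start were searched on both strands. The match in AREG, in capitals below, lies 65 to 58 bases before the start, and 1.65% of all 35116 promoters hold it in a window of this length. The 248 bases printed (chr4:74444886-74445133, plus strand) end just before the earlier of the RefSeq and GENCODE starts.
AREG: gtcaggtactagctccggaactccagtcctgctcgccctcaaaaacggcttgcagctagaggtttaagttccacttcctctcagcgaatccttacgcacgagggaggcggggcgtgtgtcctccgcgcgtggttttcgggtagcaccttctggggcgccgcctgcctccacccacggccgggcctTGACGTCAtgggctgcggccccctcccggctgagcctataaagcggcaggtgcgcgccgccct
The other patterns searched were TGANTCA for AP-1 (in 6.57% of promoters), CCGGAAGT for ETS factors (3.42%), GCGTGGGCG for EGR factors (0.72%) and the CArG box of the serum response factor (1.16%). The cyclic AMP element contains no AP-1 match within its letters. None of these 4 patterns was found in the window of AREG. A match is a description of letters, and binding was not measured.

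HBEGF (ENSG00000113070, chromosome 5, 140332843 to 140346631), the heparin-binding ligand, was scarce and fell under the expression filter. It had 50, 43 and 41 counts in pectolinarigenin libraries 1 to 3, against 34, 20 and 17 counts in control libraries 1 to 3. In FPKM it had 1.04, 0.88 and 0.68 with pectolinarigenin and 0.61, 0.36 and 0.38 in control. The groups did not overlap, although pectolinarigenin library 3 and control library 1 lay close together. Scaled for library size, the log2 ratio of the group means was 0.91, with no test at the filter used. With edgeR's own filter (filterByExpr), under which 46.4% of 16446 genes changed (23.6% rose and 22.7% fell), HBEGF was tested and rose by 0.90 on the log2 scale (SE 0.26, adjusted p = 0.0104).

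TGFA (ENSG00000163235, chromosome 2, 70447280 to 70554193), which encodes transforming growth factor alpha, was at the limit of detection. It had 0, 0 and 2 counts in pectolinarigenin libraries 1 to 3 and 1 count in each control library. Such counts lie under 3 counts per library, or 0.148 to 0.198 CPM, and no difference was detectable at this depth. Limits and intervals from counts cover counting error only.

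Other ligands of the family went both ways. Betacellulin, encoded by BTC (ENSG00000174808, chromosome 4, 74744759 to 74794686), lies on the same chromosome as AREG, beyond its end. BTC had 2.0, 2.71 and 2.1 FPKM in pectolinarigenin libraries, against 0.57, 0.42 and 0.37 FPKM in control libraries. It rose by 2.25 on the log2 scale (SE 0.21; edgeR adjusted p = 8.45e-07), and it passed the expression filter through its pectolinarigenin values. On the scale of limma with log2(FPKM + 1), which understates changes of low genes, its rise was 1.17.

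EGF itself (ENSG00000138798, chromosome 4, 109912884 to 110012266) moved the other way. It had 4.74, 4.54 and 4.31 FPKM in pectolinarigenin libraries, against 7.48, 7.03 and 7.09 FPKM in control libraries. The groups did not overlap, and EGF changed by -0.71 on the log2 scale (SE 0.066; edgeR adjusted p = 7.63e-07). EREG and EPGN, which encode epiregulin and epigen and lie on the other side of AREG on chromosome 4, had 1 to 3 counts per pectolinarigenin library and 0 to 2 per control library. NRG2 had 0 counts in all libraries, and ERBB4, the fourth receptor, had 5 counts over the pectolinarigenin libraries and 2 over the control libraries.

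The receptors split, with EGFR higher and its partners lower. EGFR (ENSG00000146648, chromosome 7, 55019021 to 55211628) had 33.33, 29.03 and 26.21 FPKM in pectolinarigenin libraries 1 to 3, against 19.57, 19.97 and 19.34 FPKM in control libraries 1 to 3. The groups did not overlap, and the pectolinarigenin libraries spread far more widely than the control libraries. EGFR rose 1.46-fold, a log2 fold change of 0.55 (SE 0.071, 95% interval 0.40 to 0.70; edgeR adjusted p = 1.74e-05).

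ERBB2 (ENSG00000141736, chromosome 17, 39687914 to 39730426) had 15.66, 15.52 and 14.19 FPKM in pectolinarigenin libraries, against 17.15, 17.53 and 18.11 FPKM in control libraries. All pectolinarigenin values were below all control values. ERBB2 changed by -0.26 on the log2 scale (SE 0.056, 95% interval -0.38 to -0.14; edgeR adjusted p = 0.00131), a decrease to 0.837 of the control level. Genes annotated on the opposite strand overlap both receptors, EGFR-AS1 (155, 167 and 217 counts with pectolinarigenin, 159, 184 and 125 in control) at EGFR, and PGAP3 and MIEN1 at ERBB2, all with fewer counts than the receptor they overlap.

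ERBB3 (ENSG00000065361, chromosome 12, 56076799 to 56103505) had 31.95, 30.78 and 28.41 FPKM in pectolinarigenin libraries, against 33.09, 33.03 and 33.86 FPKM in control libraries. The groups did not overlap, but the gap between them was small. ERBB3 changed by -0.17 on the log2 scale (SE 0.056, 95% interval -0.29 to -0.054; edgeR adjusted p = 0.0178). This call was lost without control library 2 (adjusted p = 0.0586) or control library 3 (0.0831), without TMM factors (0.0603), without the expression filter (0.0504, where 22.7% of genes changed) and in limma on log2(FPKM + 1) (0.0666).

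Because FPKM is per length, the receptors can be set beside each other. EGFR held 41.2%, 38.5% and 38.1% of the summed FPKM of EGFR, ERBB2 and ERBB3 in pectolinarigenin libraries 1 to 3, against 28.0%, 28.3% and 27.1% in control libraries 1 to 3. The mean share of ERBB3 was 40.5% ± 1.0 with pectolinarigenin and 47.2% ± 0.4 in control, and that of ERBB2 was 20.2% ± 0.7 and 24.9% ± 0.4 (SD, n = 3 each). The sum itself overlapped between the groups, at 68.8 to 80.9 FPKM with pectolinarigenin and 69.8 to 71.3 FPKM in control. EGFR was thus at 0.923 to 1.04 of the level of ERBB3 in pectolinarigenin libraries and at 0.571 to 0.605 of it in control libraries. These ratios depend on the gene lengths behind the deposited FPKM, which came to 11711 bases for ERBB3, where the exons in GENCODE 29 sum to 9039, and to 12507 against 12521 for EGFR.

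**Figure D2:**
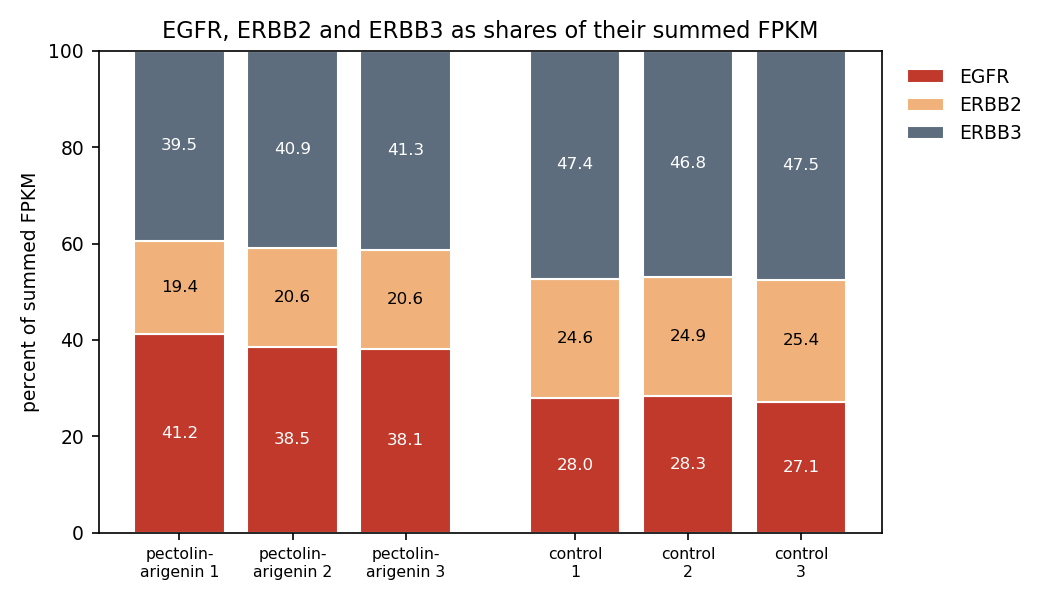
Shares of EGFR, ERBB2 and ERBB3 in their summed FPKM (percent, y axis) in each library, pectolinarigenin left and control right. EGFR takes 38.1% to 41.2% in the pectolinarigenin libraries and 27.1% to 28.3% in the control libraries.

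The promoters of EGFR and ERBB2 are set side by side because these receptors moved in opposite directions. The 250 bases before the start of EGFR (chr7:55018767-55019016, plus strand) held none of the 5 patterns searched. The last 30 bases before the RefSeq start of ERBB2 (chr17:39688064-39688093, plus strand) held the ETS letters on both strands, in capitals, at 27 to 20 and at 14 to 7 bases before the start. The gene starts earlier in GENCODE 29, at 39687914, so this stretch lies within the gene as annotated there. ERBB2 also held TGANTCA letters at 222 to 216 bases before the start, outside the stretch printed. Outside the 10 genes, the windows of the ligands BTC and EGF were searched too. That of BTC, which rose, held none of the 5 patterns. EGF, a ligand that fell, is shown for its TGAGTCA, in capitals, at 17 to 11 bases before the start (chr4:109912853-109912882, plus strand).
EGFR: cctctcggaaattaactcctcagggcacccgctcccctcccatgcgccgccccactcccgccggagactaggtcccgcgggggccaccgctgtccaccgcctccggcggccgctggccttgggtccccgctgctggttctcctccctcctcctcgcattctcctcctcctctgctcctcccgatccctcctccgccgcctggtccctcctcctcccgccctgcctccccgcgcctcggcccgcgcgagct
ERBB2: tccACTTCCGGagtaaCCGGAAGTtcctgt
EGF: taaaaagcaaagcTGAGTCAttccactttt
Of the 9 genes with a promoter entry, 2 held any of the patterns, AREG and ERBB2. Their absence from the windows of the other 7 says only that these letters are not there.

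Of the feedback inhibitors, ERRFI1, SPRY2 and SPRY4 rose and SPRED1 did not pass. ERRFI1 (ENSG00000116285, chromosome 1, 8004404 to 8026308) had the highest level of the 10 genes in both groups. It had 97.35, 87.83 and 137.78 FPKM in pectolinarigenin libraries 1 to 3, against 68.50, 71.56 and 71.44 FPKM in control libraries 1 to 3. The groups did not overlap, and pectolinarigenin library 3 stood well above the other two. ERRFI1 rose 1.49-fold, a log2 fold change of 0.58 (SE 0.12, 95% interval 0.32 to 0.83; edgeR adjusted p = 0.00101). Without pectolinarigenin library 3 its log2 fold change was 0.35 (adjusted p = 3.87e-06). A gene annotated on the opposite strand of ERRFI1, AL034417.4 in GENCODE 29, had 24, 25 and 54 counts with pectolinarigenin and 7, 4 and 3 in control. The strand setting of the counting is not given in the sources used here, so reads of this pair cannot be told apart, although these counts are small beside the 5982 to 11695 counts of ERRFI1 with pectolinarigenin.

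SPRY4 (ENSG00000187678, chromosome 5, 142310427 to 142326455) had 4.03, 3.38 and 4.09 FPKM in pectolinarigenin libraries, against 2.34, 2.41 and 2.18 FPKM in control libraries. It rose 1.62-fold, a log2 fold change of 0.69 (SE 0.097, 95% interval 0.49 to 0.90; edgeR adjusted p = 3.32e-05). SPRY2 (ENSG00000136158, chromosome 13, 80335976 to 80340951) had 15.14, 16.90 and 16.98 FPKM with pectolinarigenin, against 12.55, 11.40 and 12.40 FPKM in control. It rose 1.32-fold, a log2 fold change of 0.40 (SE 0.072, 95% interval 0.24 to 0.55; edgeR adjusted p = 0.00033). Neither gene had overlapping groups.

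SPRED1 (ENSG00000166068, chromosome 15, 38252326 to 38357249), which binds neurofibromin and brings it to RAS at the membrane, had 5.67, 5.13 and 6.44 FPKM in pectolinarigenin libraries, against 5.95, 5.80 and 5.59 FPKM in control libraries. The control values lay inside the range of the pectolinarigenin values. Its log2 fold change was -0.043 (SE 0.083; edgeR adjusted p = 0.691), with a 95% interval of -0.22 to 0.13. Without pectolinarigenin library 2 its log2 fold change was 0.036, and without pectolinarigenin library 3 it was -0.14, and neither passed.

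**Figure D3:**
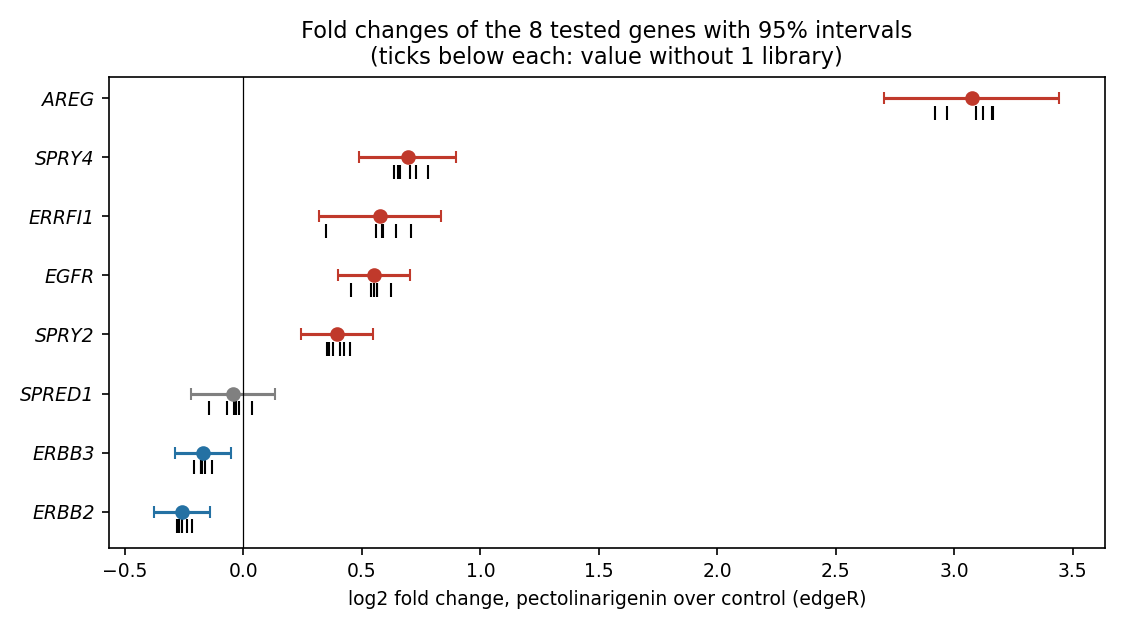
Log2 fold change of the 8 tested genes, pectolinarigenin over control, with 95% intervals (coloured bars) and the values when each of the 6 libraries is left out (black ticks). AREG lies at 3.07, apart from the other rises at 0.40 to 0.69, and ERRFI1 has a tick at 0.35, the value without pectolinarigenin library 3.

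In order of level, no neighbours overlapped in the control libraries, which ran from ERRFI1 (70.5 FPKM on average) through ERBB3, EGFR, ERBB2, SPRY2, SPRED1, SPRY4, AREG and HBEGF to TGFA. With pectolinarigenin the order was ERRFI1 (107.7 FPKM on average), ERBB3, EGFR, SPRY2, ERBB2, AREG, SPRED1, SPRY4, HBEGF and TGFA. The ranges of ERBB3 and EGFR overlapped there, as did those of SPRY2 (15.14 to 16.98 FPKM) and ERBB2 (14.19 to 15.66 FPKM). AREG was 8th of the 10 in control cells and 6th in pectolinarigenin cells.

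The pectolinarigenin libraries differed among themselves in a way that divided the genes. Relative to the control mean, with library scaling, AREG stood at 7.24, 7.80 and 10.0 in pectolinarigenin libraries 1, 2 and 3, and ERRFI1 at 1.34, 1.21 and 1.93. Both were highest in library 3. EGFR stood at 1.65, 1.43 and 1.32, and HBEGF at 2.25, 1.9 and 1.48, so these were highest in library 1 and lowest in library 3. SPRY4 (1.69, 1.42 and 1.74) and SPRED1 (0.95, 0.859 and 1.1) were lowest in library 2. The coefficient of variation of ERRFI1 was 25.7% with pectolinarigenin and 2.18% in control, and that of EGFR 11.4% and 1.8%. Of the 9 genes other than TGFA, HBEGF was the one that varied more among control libraries (31.8%) than among pectolinarigenin libraries (20.4%). Library 3 had the highest total count of all 6, and its part in these differences was not tested.

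Around these genes, some transcripts commonly used to read ERK activity were higher, while 8 genes of the signalling chain were lower. Among the 10 ERK readouts, a list that includes SPRY2 and SPRY4, 9 were tested, 6 rose and 0 fell. Over all tested genes 25.3% rose and 25.3% fell. The median log2 fold change of the readouts was 0.69, which is the value of SPRY4 itself, beside 0.0007 over all tested genes. SPRY2 and SPRY4 are also among the 6 that rose, so neither the count nor the median is separate from the 10 genes. The other readouts that rose were PHLDA1, DUSP4, EPHA2 and ETV4. DUSP4, a phosphatase that inactivates ERK, had 2.41 ± 0.40 FPKM with pectolinarigenin and 0.763 ± 0.047 FPKM in control (SD, n = 3 each). DUSP4 rose by 1.63 on the log2 scale (SE 0.14), and it passed the filter through its pectolinarigenin values. PHLDA1 rose by 1.36 (SE 0.13) and the ETS factor ETV4 by 0.72 (SE 0.086). DUSP6, CCND1 and ETV5 had log2 fold changes of 0.18, 0.13 and 0.24 and did not pass (edgeR adjusted p = 0.277, 0.0557 and 0.0749). With all 6 libraries, the 9 values were above 0 in edgeR, DESeq2 and limma, so 0 were lower at an unadjusted p under 0.05. CCND1 passed in limma on log2(FPKM + 1) (adjusted p = 0.0135) and with filterByExpr (0.0378), and without TMM factors CCND1 (0.014) and ETV5 (0.0393) passed. ETV5 also passed in edgeR with a replicate block (0.0313). Without pectolinarigenin library 3, DUSP6 was at -0.07 and ETV5 at 0.07, and neither passed. Without pectolinarigenin library 2 or without the expression filter, 9 of the readouts passed as higher, and with a mean of at least 5 FPKM, which tests fewer genes, 3 did.

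In the chain from adaptors to ERK, 16 of 17 genes were tested, 8 fell and 2 rose, with a median log2 fold change of -0.11. Beside these counts stand the 25.3% of all tested genes that fell and the 25.3% that rose. SHC1, an adaptor that binds activated receptors, fell to 19.7 ± 0.6 FPKM with pectolinarigenin, against 27.3 ± 0.4 FPKM in control (SD, n = 3 each), a change of -0.51 on the log2 scale (SE 0.055). The docking protein GAB1 changed by -0.52 (SE 0.064) and the kinase BRAF by -0.50 (SE 0.078). HRAS rose by 0.64 (SE 0.14) and PTPN11, the phosphatase SHP2, by 0.30 (SE 0.056). MAPK3, which encodes the kinase ERK1, changed by -0.34 (SE 0.088).

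Of 9 further Sprouty-family and RAS GTPase-activating genes 7 were tested, 3 fell, 1 rose and 3 did not pass. Together the changed genes come near the 50.6% of all tested genes that changed, 25.3% in each direction. The median log2 fold change of the list was -0.16. NF1, which encodes neurofibromin, changed by -0.60 (SE 0.082), DAB2IP by -0.44 (SE 0.078) and RASA1 by -0.33 (SE 0.066). SPRED2 rose by 0.22 (SE 0.070; edgeR adjusted p = 0.0163), with overlapping groups, and lost its call without control library 1 (0.0646), control library 3 (0.0809) or pectolinarigenin library 1 (0.0639). SPRY1 did not pass (0.23 on the log2 scale, SE 0.10; adjusted p = 0.0809), but it passed without pectolinarigenin library 2 (0.0159) and without TMM factors (0.0415).

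The shares that rose or fell among genes of ligand release and receptor uptake are read against the 25.3% of all tested genes that moved in each direction, and nothing particular to these lists was tested. Of 9 genes of ligand release 7 were tested, 2 fell and 1 rose. TIMP3, an inhibitor of the shedding protease ADAM17, changed by -0.56 (SE 0.076), the protease ADAM10 by -0.20 (SE 0.054) and ADAM9 by 0.25 (SE 0.057). ADAM17 itself had 3.23 ± 0.14 FPKM with pectolinarigenin and 3.36 ± 0.12 FPKM in control (SD, n = 3 each), and its log2 fold change of -0.095 (95% interval -0.25 to 0.056) did not pass. Of 13 genes of receptor uptake and degradation 11 were tested, 3 rose and 2 fell. The ubiquitin ligase RNF41 rose by 0.33 (SE 0.058), SH3KBP1 by 0.34 (SE 0.069) and LRIG3 by 0.26 (SE 0.058), while the endocytic adaptor EPS15 changed by -0.52 (SE 0.059) and CBLB by -0.20 (SE 0.067). CBLB lost its call without control library 1 (0.0968), control library 3 (0.0740) or pectolinarigenin library 3 (0.0644).

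Other receptor tyrosine kinases of liver cells did not move with EGFR as a group. Of 10 listed 7 were tested, 2 rose and 4 fell, with a median of -0.26. Over all tested genes 25.3% moved in each direction. The ephrin receptor EPHA2, which is also an ERK readout, rose by 0.78 (SE 0.096) and MET, the receptor of hepatocyte growth factor, by 0.21 (SE 0.055). FGFR3 changed by -0.56 (SE 0.065), the insulin receptor INSR by -0.26 (SE 0.061) and DDR1 by -0.40 (SE 0.093).

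**Figure D4:**
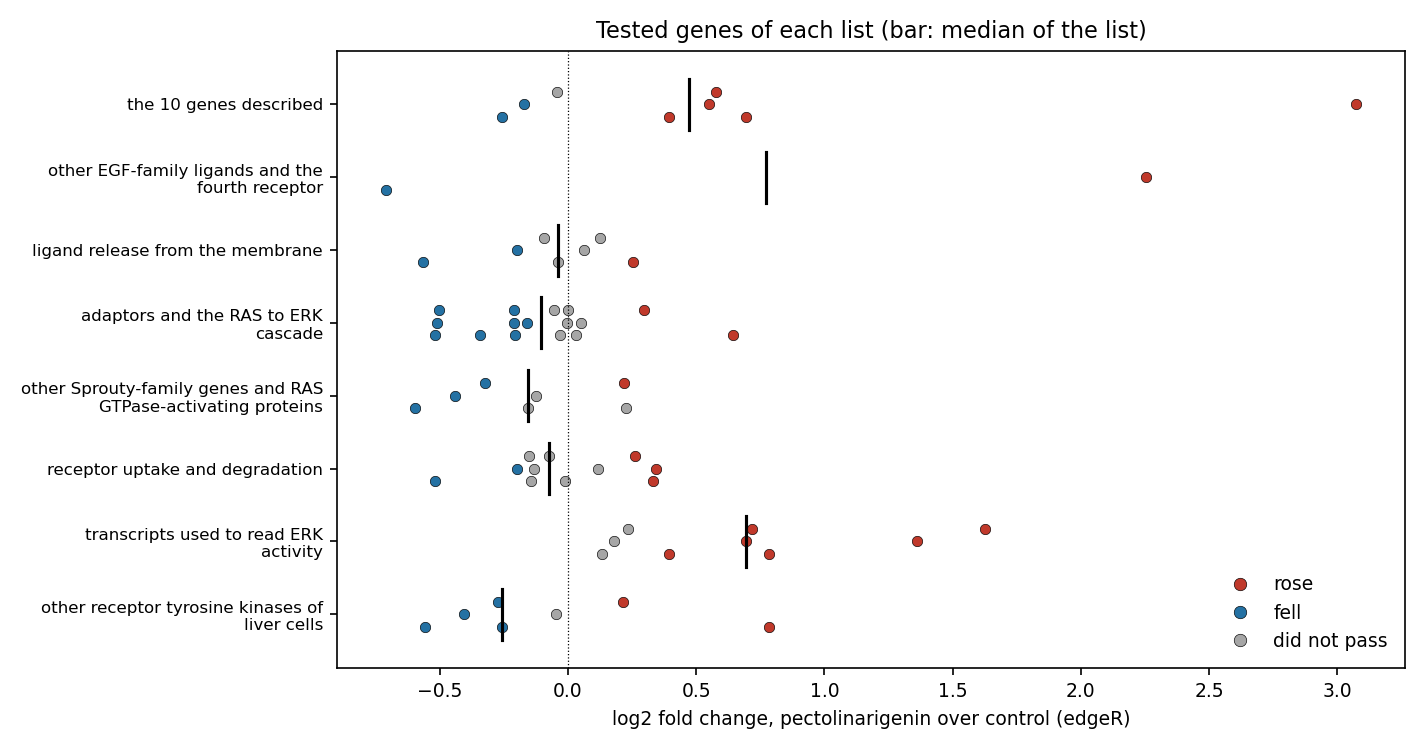
Log2 fold change (x axis, pectolinarigenin over control) of the tested genes in each list (points, coloured by whether they rose, fell or did not pass; vertical offsets only separate points), with the median of each list as a black bar. The ERK readouts, which include SPRY2 and SPRY4, have their median at 0.69, the value of SPRY4, and no gene that fell. The adaptors and the RAS to ERK cascade have their median at -0.11.

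AREG was compared with all other tested genes by Pearson's r of log2(CPM + 1) over the 6 libraries, as a description across libraries that share 1 contrast. Among the most similar genes with a symbol were MAP1LC3B (r = 0.9994), the metallothionein MT1X (0.9993), SIK1B (0.9990) and CDC34 (0.9989). Of the 12828 other genes, 10.7% had an r above 0.95 with AREG, so high values were common.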

How the data were processed

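Counts per gene in the deposited table were whole, unnormalized numbers. The deposited FPKM were scaled by the authors for gene length and library total. Per the submitters' processing notes, the build was GRCh38 and the tools included HTSeq 0.6.1, HISAT2 2.0.1 and cutadapt 1.9.1. The sources used here do not give their roles, the annotation release, the strand setting or how multi-mapping reads were handled.

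Genes with a mean of at least 1 FPKM (12829) were tested with edgeR 4.0.16 (R 4.3.3): quasi-likelihood test, TMM factors, no covariate, 2-sided, Benjamini-Hochberg over all tested genes at 0.05. Standard errors come from the F statistic. Alternatives used DESeq2 1.42.0, limma 3.58.1 on log2 FPKM, other scalings and filters, a replicate block, and each library left out. On simulated counts for this comparison (12829 genes), 80 of 100 genes changed 1.5-fold and 94 of 100 changed 2-fold were called, with 3 of 12629 unchanged genes. Within groups, no library pair agreed within sampling noise (chi-square per degree of freedom 5.32 to 13.6 with pectolinarigenin and 1.60 to 3.13 in control). The simulation gave both groups the same spread and changed few genes, so its rates need not hold for the real counts.

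The genes and lists were chosen with earlier results of these data known. Beyond the 10 genes, each list named up to 3 tested genes with the smallest p in each direction, members under the filter with their counts, and the 5 genes most like AREG, of which 1 is not reported here. MAPK3, DUSP6, CCND1, ETV5, SPRY1, ADAM17 and AL034417.4 were named after their values were seen. Positions are from GENCODE 29, promoters from RefSeq.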

Additional observations from a re-analysis of the deposited data

How the results depend on the processing

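The count of tested members that changed was 6 to 8 over 16 alternatives, against 7. Members that fell numbered 1 in place of 2 without TMM factors, without the expression filter and in limma on log2(FPKM + 1) or log2(FPKM + 0.1), and 1 to 2 without single libraries; ERBB3 was the gene lost each time. With a mean FPKM of at least 5, 4098 genes changed in all, against 6486, since fewer genes were tested. Of the 73 tested list genes, 1068 of 1149 alternative values kept their side of the threshold, 60 lost the call and 21 gained it. Of called values 0 turned sign, but values that did not pass could cross 0, as those of SPRED1 and DUSP6 did. Of 352 alternative counts of genes that rose or fell in the other lists, 28 differed by over 1.5 times or went to or from 0. Without TMM factors 56.9% of all changed genes were higher, against 50%, with the median of all genes at 0.038 on the log2 scale, and no called member turned direction. With a replicate block 7 members changed. Same-numbered libraries correlated at 0.010 to 0.037 in their deviations from the group means, and each correlated best with its own number. Such weak values cannot tell whether same-numbered libraries were handled together. Depth limits TGFA, EREG and EPGN, and HBEGF is tested under some filters only.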

Other observations

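Some listed genes under the filter of 1 FPKM were tested with edgeR's own filter, under which 46.4% of 16446 genes changed. Not all of them passed. UBASH3B had a log2 fold change of 0.90 (SE 0.37, edgeR adjusted p = 0.0552) and SPRED3 one of -0.073 (SE 0.21, adjusted p = 0.803). KSR1, a scaffold of RAF, MEK and ERK, had 256, 229 and 297 counts in pectolinarigenin libraries, against 158, 175 and 141 counts in control libraries, and rose by 0.70 on the log2 scale (SE 0.10, edgeR adjusted p = 4.45e-05). NRG3 and NRG4, neuregulins known as ligands of ERBB4, which was barely detected here, moved apart. NRG3 had 98, 84 and 113 counts with pectolinarigenin and 81, 63 and 53 in control (log2 fold change 0.56, SE 0.16, adjusted p = 0.00912). NRG4 had 32, 23 and 49 counts with pectolinarigenin and 68, 56 and 54 in control (log2 fold change -0.81, SE 0.22, adjusted p = 0.00677). The fibroblast growth factor receptors FGFR1 and FGFR2 were higher by 0.32 (SE 0.11) and 0.42 (SE 0.095), while FGFR3 was lower in the main comparison. RHBDF2, which helps ADAM17 reach the cell surface, had 102, 85 and 154 counts with pectolinarigenin and 68, 97 and 35 in control, and its scaled values overlapped (log2 fold change 0.75, SE 0.22, adjusted p = 0.0106).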
